A study of Saccharomyces cerevisiae with 11 samples.

Results

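The genes described here encode the subunits of RNA polymerases I and III of budding yeast (Saccharomyces cerevisiae), the factors that bring these enzymes to their genes, and Maf1, the repressor of polymerase III. They were chosen from a list of 36 gene names, and each was represented by the probe set annotated to that gene alone, or by the one with the highest mean time course signal where there were several. All 36 had such a probe set, out of 5656 genes with a 1-gene probe set on the array. The list held 7 subunits of polymerase I, 2 subunits that polymerases I and III share, 10 subunits of polymerase III, 8 polymerase I initiation factors, 6 subunits of TFIIIC, 2 of TFIIIB and MAF1.

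Transcripts were measured on 11 Affymetrix arrays with total RNA of whole cells in mid-log growth. The strain set comprised a strain with PAF1 deleted (2 arrays), a strain with CTR9 deleted (1 array) and wild type (2 arrays), all grown in rich YPD medium with 4% glucose. In the time course, a strain in which the TetO2 promoter drives PAF1 was sampled at 0, 2, 4, 5, 6 and 8 h of doxycycline, an antibiotic that shuts this promoter off. Each time had 1 array, and the medium was not in the labels. Paf1 and Ctr9 are subunits of the Paf1 complex, which travels with RNA polymerase II. The labels give no strain background or other marker, so effects of background and of a deletion cannot be told apart, and nothing said whether replicates were separate cultures. The p-values therefore measure the spread between these arrays, which may be technical.

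RNA polymerase I transcribes a single kind of gene, the ribosomal DNA repeat that yields the large ribosomal RNAs. RNA polymerase III makes transfer RNAs, 5S ribosomal RNA and other short RNAs. Both enzymes are built from a catalytic core with its own large subunits, from Rpc40 and Rpc19, which the pair share, and from small subunits that all 3 nuclear polymerases share. Their subunits are themselves encoded by messenger RNAs made by polymerase II, and their output is known to follow nutrient supply and growth.

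The deposited values were of 2 kinds. Time course values were a linear signal, and strain values were a score between -10 and 10 whose scale is not stated, so a score difference is not a fold change. Controls without a target in yeast reached a signal of 44.2 and scores from -2.08 to 1.93. PAF1 scored 1.00 and 0.47 in the paf1 deletion, against 7.27 and 8.08 in wild type, and CTR9 scored 0.00 in the ctr9 deletion against 1.84 and 4.36 in wild type. PAF1 signal was 272, 119, 139, 165, 184 and 166 at 0, 2, 4, 5, 6 and 8 h. Probe sets of the 5′ end of actin gave 5.92% of the 3′ signal at 4 h, against 68.6% to 78.6% at the other times, and spike-ins added at hybridization stood at 4.34 and 3.93 times their 0 h signal at 4 and 6 h. Of the 36 genes, 35 passed the filter on low values for scores and 35 for signals. UAF30, a subunit of the upstream activating factor of polymerase I, was below it for both, with signals of 29.4 to 33.6 in the time course and scores of 1.81 and 0.76 in the paf1 deletion, 2.89 on the ctr9 deletion array and 2.33 and 3.82 in wild type.

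The time course asked how these transcripts follow the shut-off of PAF1. Most subunit transcripts of both polymerases were below their 0 h signal from the first time sampled, whereas most initiation factors stayed near it. At 2 h, 18 of 19 subunits lay below 0 h, with a median log2 ratio of -0.63, against 10 of 15 initiation factors with a median of -0.13. Over all 6492 probe sets tested the median was 0.04, and 2988 of them lay below 0 h. With 1 array per time no single time could be tested, and every ratio is taken to the same 0 h array, so the later times are not independent of each other. The array measures a share of total RNA, so less of a transcript per cell cannot be told apart from more of the other RNA.

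At least 1.5-fold below 0 h were 12 of 35 members at 2 h, where 11.3% of all tested probe sets were. For 4, 5, 6 and 8 h the members' counts were 4, 11, 11 and 4, where 14.0%, 13.1%, 10.6% and 9.84% of all probe sets were that low. At least 1.5-fold above 0 h were 0, 2, 0, 1 and 1 members over the 5 later times, where 11.4%, 18.1%, 10.8%, 18.5% and 17.3% of all probe sets were that high. The lower members were mostly subunits, which gave 10, 3, 9, 10 and 4 of these counts out of 19, while the initiation factors gave 2, 1, 2, 1 and 0 out of 15. Subunits and factors also differ in signal, since 12 of the 13 members with a mean signal of at least 500 were subunits. Among all 2284 probe sets that bright, 196 were at least 1.5-fold lower at 2 h and the median ratio was 0.03.

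**Figure D1:**
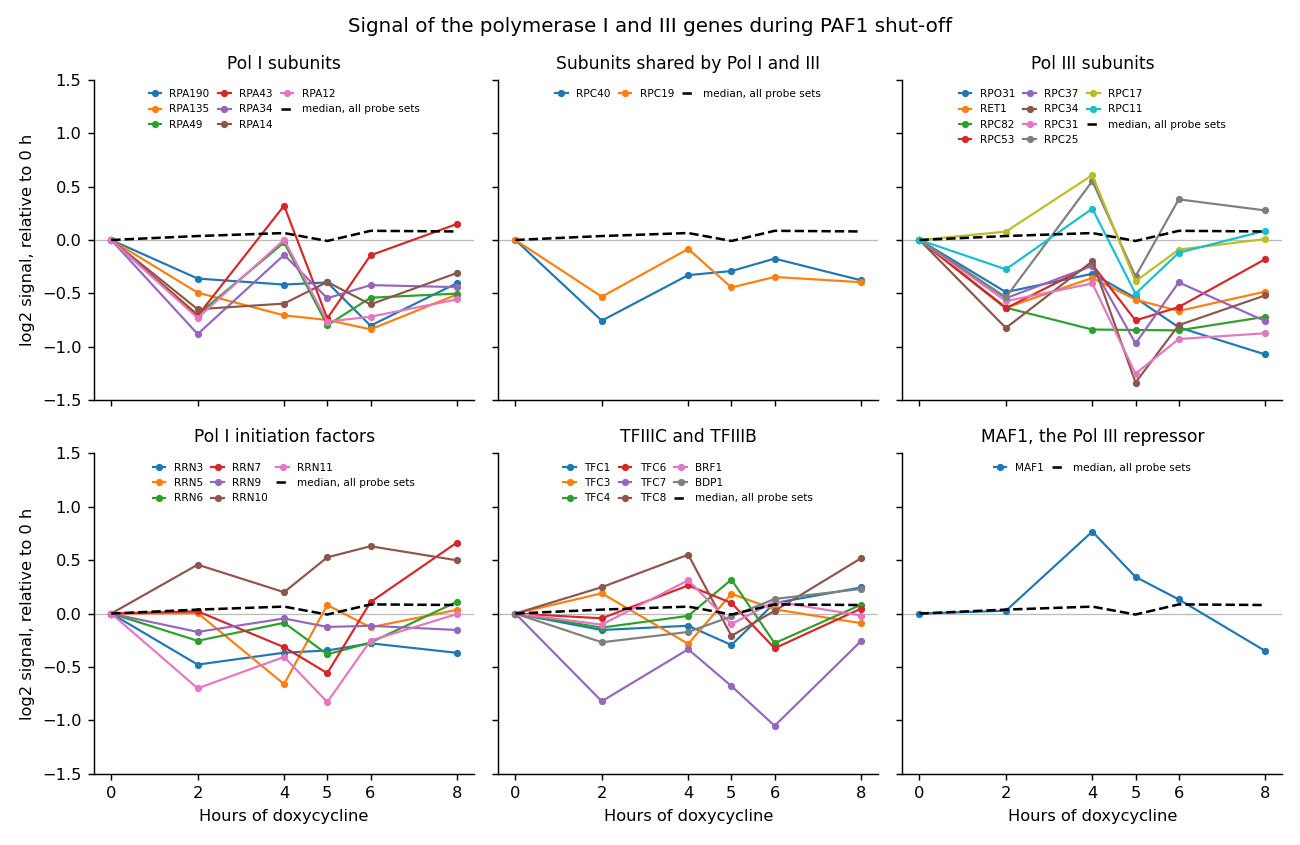
Each line is a gene, with its log2 signal relative to 0 h on the vertical axis and hours of doxycycline on the horizontal axis. The dashed line is the median of all tested probe sets. Most subunit lines lie below 0 at 2, 5 and 6 h, with RPC34 reaching -1.33 at 5 h, while among the initiation factors TFC7 reaches -1.05 at 6 h.

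On the probe sets used, the largest polymerase I subunits were lower at every time after 0 h. RPA190, which encodes the largest catalytic subunit, gave signals of 3874, 3016, 2901, 2942, 2222 and 2927 at 0, 2, 4, 5, 6 and 8 h. RPA135, which encodes the second largest subunit, gave 3244, 2305, 1989, 1931, 1817 and 2277 at these times. Both were lowest at 6 h, where the log2 ratio to 0 h was -0.80 for RPA190 and -0.84 for RPA135. In a linear fit over the 6 arrays their slopes were -0.061 (SE 0.031) and -0.072 (SE 0.036) log2 units per hour and did not pass (limma adjusted p = 0.610 and 0.597).

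RPA49, RPA34 and RPA12 were low at 2 h, near 0 h at 4 h and lower again at 5 h. RPA49 and RPA34 encode a heterodimer that acts in initiation and elongation. RPA49 signal was 1723, 1061, 1695, 991, 1185 and 1217 at 0, 2, 4, 5, 6 and 8 h, and RPA34 signal was 2150, 1167, 1951, 1473, 1604 and 1583. Their log2 ratios were -0.70 and -0.88 at 2 h but -0.02 and -0.14 at 4 h. RPA12, a subunit for RNA cleavage and termination, had the same course, with ratios of -0.73 at 2 h, 0.00 at 4 h and -0.76 at 5 h. Here and below, values at 4 h rest on the 1 array with the low actin 5′ signal, whose part in them was not tested.

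The stalk of polymerase I, formed by Rpa43 and Rpa14, contacts the initiation factor Rrn3. RPA43 signal was 612, 374, 765, 368, 554 and 679 at the 6 times, so it lay above 0 h at 4 and 8 h. RPA14 stayed below 0 h throughout, with ratios from -0.65 at 2 h to -0.31 at 8 h. RPA43 and RPA190 are neighbours in the RefSeq annotation (assembly R64), and at 4 h their ratios were 0.32 and -0.42. RPA14 overlaps the open reading frame YDR157W in that annotation.

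The probe sets of RPA190 disagreed, most of all at 4 h. RPA190 has 7 probe sets annotated to it alone. The second brightest gave 1399, 1556, 24.3, 1239, 1506 and 1530 at 0, 2, 4, 5, 6 and 8 h, and the third brightest gave 1098, 671, 5.40, 712, 543 and 793. Both were far lower at 4 h than at any other time, whereas the chosen probe set gave 2901 at 4 h. Where in the transcript these probe sets lie was not given in the sources used here, and the part of the low actin 5′ signal of that array in this was not tested.

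**Figure D2:**
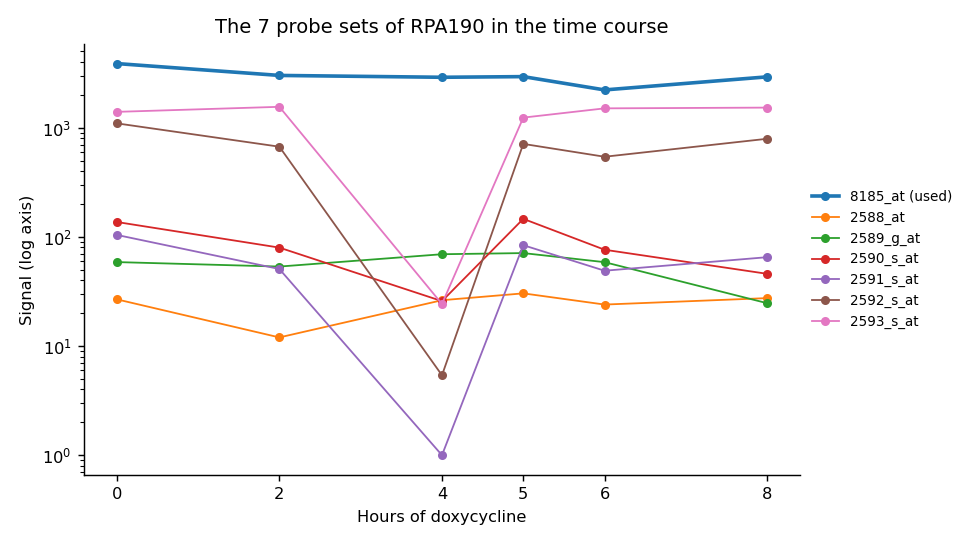
Signal of each RPA190 probe set (vertical log axis) against hours of doxycycline. The chosen probe set is the thick line between 2222 and 3874, and the next brightest probe sets are at 24.3 and 5.40 at 4 h.

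Subunits that polymerases I and III share had their lowest signal at 2 h. RPC40 signal was 904, 536, 720, 739, 801 and 696 at 0, 2, 4, 5, 6 and 8 h, and RPC19 signal was 2818, 1950, 2659, 2071, 2217 and 2143. All 5 later values of each lay below 0 h, with ratios at 2 h of -0.76 for RPC40 and -0.53 for RPC19.

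Among the polymerase III subunits, 9 of 10 lay below 0 h at 2 h and all 10 at 5 h, with medians of -0.56 and -0.66. Of all 6492 probe sets tested, 2988 and 3315 lay below 0 h at these times. RPO31, which encodes the largest subunit, had signals of 846, 603, 679, 581, 480 and 403 at 0, 2, 4, 5, 6 and 8 h. Its last value, 47.6% of 0 h, was the lowest, and its slope of -0.12 log2 units per hour (SE 0.032) was the steepest downward slope of the members without passing (limma adjusted p = 0.557). RET1, the second largest subunit, had 2677, 1725, 2093, 1818, 1689 and 1915, lowest at 6 h with a ratio of -0.66.

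Rpc82, Rpc34 and Rpc31 form the trimer that acts in initiation by polymerase III, and all of these transcripts stayed below 0 h. RPC82 signal was 494, 319, 276, 276, 275 and 300 at the 6 times, a level of 55.6% to 64.4% of 0 h after doxycycline. RPC34, whose product contacts TFIIIB, had 172, 96.9, 149, 68.0, 98.7 and 120, with 39.7% of 0 h at 5 h. RPC31 had 590, 397, 445, 248, 310 and 322, with 42.0% of 0 h at 5 h. RPC34 and RPC31 were the only members at less than 50% of 0 h at that time. The slopes were -0.086 (SE 0.039) for RPC82, -0.067 (SE 0.065) for RPC34 and -0.12 (SE 0.046) for RPC31, none passing (limma adjusted p = 0.581, 0.769 and 0.560). Without the 0 h array the slopes of RPC82 and RPC31 were -0.013 and -0.071, and without the 8 h array that of RPC82 was -0.14.

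Other polymerase III subunits went separate ways after 2 h. RPC53 and RPC37 encode a heterodimer for termination and reinitiation, with ratios of -0.75 and -0.97 at 5 h and of -0.18 and -0.76 at 8 h. RPC25 and RPC17 encode the stalk. RPC25 signal was 273, 188, 400, 216, 355 and 331 at the 6 times, so it was above 0 h at 4, 6 and 8 h, and RPC17 signal was 183, 193, 279, 140, 172 and 184. RPC11, a subunit for RNA cleavage, had a lowest ratio of -0.50 at 5 h.

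Initiation factors of polymerase I included RRN3, whose product makes the enzyme competent to start, with signals of 552, 396, 428, 434, 455 and 428 at 0, 2, 4, 5, 6 and 8 h. All of its later values lay below 0 h, at 71.8% to 82.4% of it, and its slope was -0.027 (SE 0.032, limma adjusted p = 0.815). RRN6, RRN7 and RRN11 encode the core factor that binds the promoter. RRN11 had 91.3, 56.2, 68.9, 51.4, 76.6 and 91.0, with its lowest ratio to 0 h, -0.83, at 5 h, and RRN7 stood above 0 h at 8 h, with 76.1 against 48.0. RRN7 signal was close to the highest control without a target (44.2) and below it at 4 and 5 h, at 38.6 and 32.6. RRN5, RRN9 and RRN10 encode parts of the upstream activating factor. RRN10 was the only tested member at its lowest at 0 h, with 57.9, 79.5, 66.5, 83.4, 89.6 and 81.8, whereas RRN9 kept between 133 and 150.

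TFIIIC binds the internal promoters of transfer RNA genes and places TFIIIB, which recruits polymerase III. Of the 6 TFIIIC genes, TFC7 alone was at least 1.5-fold below 0 h at any time, with signals of 191, 108, 152, 119, 92.2 and 160. TFC1, TFC3, TFC4, TFC6 and TFC8 had ratios between -0.32 and 0.55 at all times. TFC8 signal, 44.5 at 0 h and 38.5 at 5 h, was close to the highest control without a target (44.2). BRF1, the TFIIB-related subunit of TFIIIB, had 341, 318, 423, 319, 369 and 337, and BDP1 had 115, 95.1, 102, 113, 126 and 134. MAF1, which represses polymerase III when nutrients are short, had 87.3, 88.9, 149, 111, 95.7 and 68.5, with its highest value at 4 h, a ratio of 0.77, and its lowest at 8 h. At 2 and 5 h the lowest ratio among these genes of TFIIIB and MAF1 was -0.27, of BDP1 at 2 h.

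Below 0 h at all 5 later times were 18 of the 35 tested members, against 18.8% of all tested probe sets. They comprised 14 of 19 subunits and 4 of 15 initiation factors, namely RRN3, RRN9, RRN11 and TFC7. The lowest of the 6 signals came at 5 h for 14 members, at 2 h for 9 and at 6 h for 7, which was not counted over all probe sets. Over all 6 arrays 0 members passed for a linear slope (0.0% of all probe sets, limma), and 2 members, RPO31 and RPC31, had an unadjusted p under 0.05, as had 560 of all 6492 probe sets. The members' median slope was -0.018 log2 units per hour and that of all probe sets 0.010. With the arrays scaled to the hybridization spike-ins, a setting chosen after seeing the data, these medians were -0.099 and -0.071.

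Genes of the same pathway outside the list were read in the same way. Subunits common to all 3 polymerases (RPB5, RPO26, RPB8, RPB10 and RPC10) were below 0 h at 2 h in 5 of 5 cases, with a median of -0.30 and 0 at least 1.5-fold lower. Subunits of polymerase II alone were below 0 h in 4 of 7 cases at 2 h, with a median of -0.14 and again 0 at least 1.5-fold lower. At 2 h, 2988 of all 6492 probe sets tested lay below 0 h. Genes of the small subunit processome, which assembles on the polymerase I transcript, were at least 1.5-fold lower in 31, 7, 35, 31 and 19 of 42 cases over the 5 later times. Their medians, -0.79, -0.36, -0.89, -0.77 and -0.58, were lower than those of the polymerase I and III subunits, -0.63, -0.23, -0.56, -0.60 and -0.44, at each of these times. Other factors of polymerase I and III transcription, such as NSI1, were below 0 h in 7 of 7 cases at 2 h, and 2 of them, FOB1 and LHP1, were at least 1.5-fold lower. Their medians were -0.37, -0.44, -0.44, -0.41 and -0.21 over the 5 later times, and 5 of 7 were below 0 h at all of them, so low values were not limited to the subunits. Kinases and partners known to act on Maf1 and Rrn3, such as SCH9 and CKA1, had a median of -0.02 over 14 genes at 2 h. None of these differences between lists was tested.

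**Figure D3:**
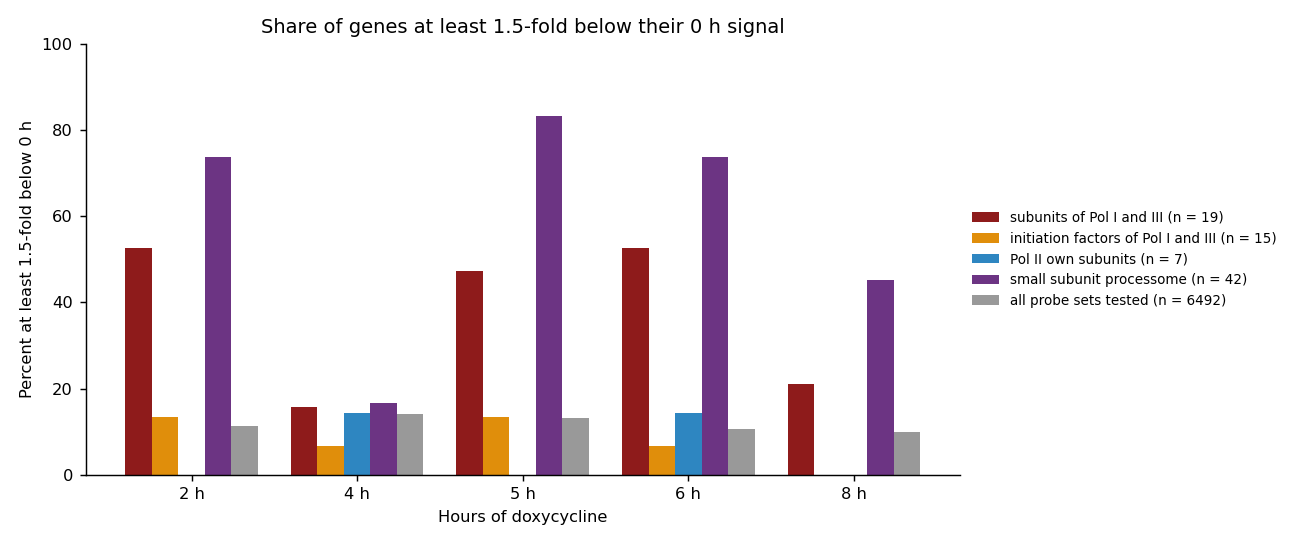
Bars give the percentage of genes in each list whose signal was at least 1.5-fold below 0 h, by hours of doxycycline. The subunits of polymerases I and III (10 of 19 at 2 h and at 6 h) lie between the processome genes (31 of 42 at these times) and the initiation factors (2 and 1 of 15).

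The strain set asked which of these transcripts differ in cells without Paf1 or Ctr9. In the paf1 deletion RPC34, a polymerase III subunit, scored lower than in wild type. RPC17 and RPC31 had the next lowest differences without passing, and 3 of the 10 polymerase III subunits had higher scores. On the probe sets used, the large catalytic subunits of both enzymes and TFIIIC scored close to wild type. Past the threshold was 1 of 35 members, RPC34, which was lower, where 0.585% of all 6493 probe sets passed as lower, and 0 members were higher, where 1.12% passed (limma, adjusted p under 0.05). An unadjusted p under 0.05 was found for 3 members and for 963 of all probe sets. The median difference was -0.05 score units over the members and -0.06 over all probe sets, and 18 of the 35 members were lower.

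RPC34, whose product links the enzyme to TFIIIB, scored 4.78 and 4.28 in the paf1 deletion and 7.14 and 7.27 in wild type. The groups were far apart, with a difference of -2.68 score units (SE 0.52) from 2 arrays in each group, which passed (limma adjusted p = 0.0395). RPC34 did not pass without wild type replicate 1, without wild type replicate 2 or without paf1 deletion replicate 2. Its difference stayed between -2.74 and -2.43 in these fits. Without paf1 deletion replicate 1 it passed, with a difference of -2.925. As every such fit leaves 1 array in a group, a call lost or kept cannot be laid to a single array.

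RPC17, for a subunit of the stalk, scored 4.96 and 5.38 in the paf1 deletion and 7.08 and 7.57 in wild type, a difference of -2.16 (SE 0.52) that did not pass (limma adjusted p = 0.0808). RPC31 scored 7.18 and 6.95 in the paf1 deletion and 8.32 and 8.99 in wild type, a difference of -1.59 (SE 0.41, limma adjusted p = 0.0879). For both genes the groups did not overlap. Over the alternative settings the limma adjusted p ran from 0.0373 to 0.414 for RPC17 and from 0.0476 to 0.371 for RPC31. Both passed only with each array centred on its median, which also raised the calls over all probe sets to 237, against 111, except that RPC17 passed with a replicate block (limma adjusted p = 0.0456), whose numbers do not pair the arrays.

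Within the trimer RPC34 and RPC31 both had lower scores, while RPC82 lay near wild type. RPC82, the third gene of the trimer, scored 6.98 and 6.92 in the paf1 deletion and 6.07 and 7.25 in wild type, a difference of 0.29 (SE 0.54). RPC25, the partner of RPC17 in the stalk, scored 6.22 and 6.00 in the paf1 deletion and 5.10 and 5.75 in wild type, higher by 0.69 (SE 0.54) without passing (limma adjusted p = 0.627). RPC53 and RPC37 differed by -1.10 (SE 0.52) and 1.08 (SE 0.61), neither passing (limma adjusted p = 0.367 and 0.459). RPC37 had scores of 5.46 and 4.77 in the paf1 deletion and of 3.58 and 4.50 in wild type. These scores are of different probe sets, and only their differences between strains are set side by side.

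**Figure D4:**
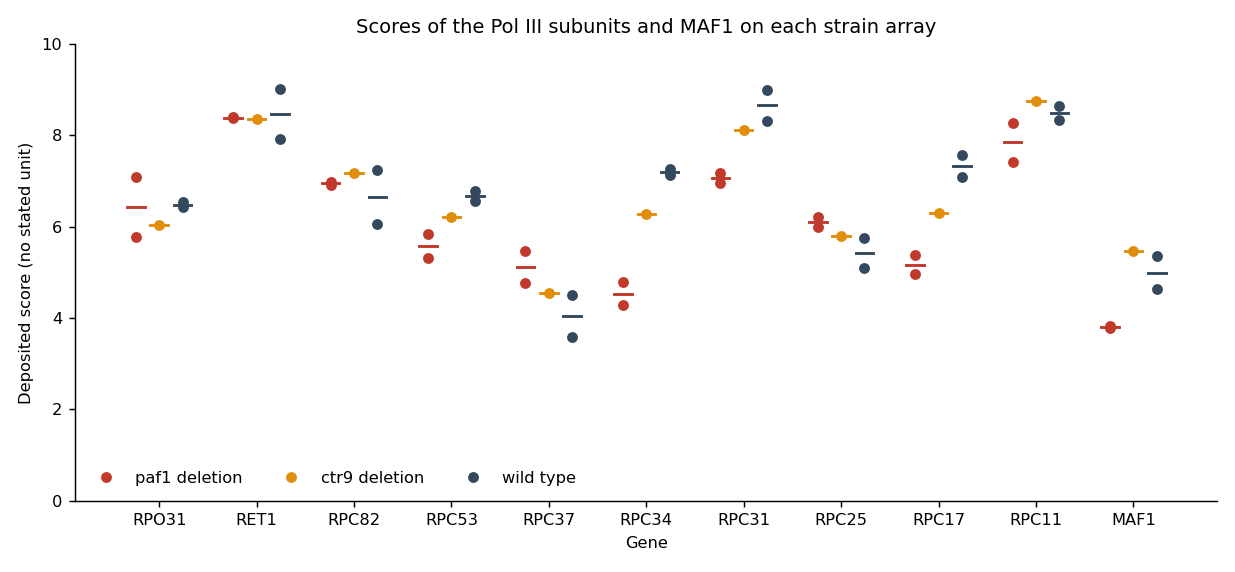
Deposited scores of the polymerase III subunits and MAF1, 1 point per array and a bar at the group mean, with the paf1 deletion left, the ctr9 deletion in the middle and wild type right for each gene. RPC34, RPC17 and RPC31 have paf1 deletion points below both wild type points and the ctr9 deletion point between the groups.

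Large catalytic subunits differed little on the probe sets used. RPO31 scored 5.77 and 7.09 in the paf1 deletion and 6.43 and 6.53 in wild type, so the groups overlapped, with a difference of -0.05 (SE 0.58). RET1 scored 8.37 and 8.40 in the paf1 deletion and 9.02 and 7.91 in wild type. RPA190 scored 8.12 and 7.96 in the paf1 deletion and 8.64 and 8.04 in wild type, and RPA135 scored 8.45 and 8.41 against 8.79 and 8.33. Their differences were -0.08 (SE 0.40) for RET1, -0.30 (SE 0.36) for RPA190 and -0.13 (SE 0.32) for RPA135. Some RPA190 probe sets not chosen scored lower in the paf1 deletion. The set with mean time course signal 24.5 scored 5.22 and 5.74 there, 4.96 in the ctr9 deletion and 6.91 and 7.94 in wild type. That signal is below the highest control without a target. In the same order, the set with 85.2 scored 6.58 and 6.26, 6.63, and 7.62 and 7.63. The set with 1209 scored 7.82 and 8.67, 8.79, and 8.84 and 8.74. In the other sets paf1 deletion and wild type scores overlapped.

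The remaining polymerase I subunits had differences from -0.61 for RPA49 to 0.10 for RPA34, and the shared subunits RPC40 and RPC19 had 0.63 (SE 0.62) and 0.14 (SE 0.30). RPC40 scored 7.11 and 6.04 in the paf1 deletion and 6.57 and 5.32 in wild type, and RPC19 scored 8.98 and 8.60 against 8.83 and 8.47, so both overlapped. Among polymerase I initiation factors, RRN3 scored 4.99 and 6.28 in the paf1 deletion and 4.57 and 5.89 in wild type, a difference of 0.41 (SE 0.66). RRN11 scored 4.70 and 3.62 in the paf1 deletion and 2.75 and 3.82 in wild type, among the highest differences of the members at 0.88 (SE 0.71). The TFIIIC genes had differences from -0.20 for TFC7 to 0.53 for TFC6. BRF1 scored 7.14 and 6.67 in the paf1 deletion and 5.95 and 6.45 in wild type, higher by 0.71 (SE 0.52) without passing (limma adjusted p = 0.598).

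MAF1 scored 3.79 and 3.82 in the paf1 deletion, 5.47 on the ctr9 deletion array and 5.35 and 4.63 in wild type. Its paf1 deletion scores lay below both other groups, with a difference from wild type of -1.19 (SE 0.58) that did not pass (limma adjusted p = 0.379). Both paf1 deletion scores lay below both wild type scores for 10 of 35 members, against 24.1% of all tested probe sets, and above them for 5, against 19.4%. The 10 were RPA49, RPA14, RPC53, RPC34, RPC31, RPC17, RPC11, RRN5, RRN7 and MAF1, and the 5 were RPC37, RPC25, RRN9, TFC4 and BRF1. RRN7 passed the filter on low values only through groups in which it was higher, so its place among the 10 is a description. These counts were near the shares of all probe sets.

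In the ctr9 deletion 0 of 35 members passed in either direction, where 0.0% of all probe sets passed as lower and 0.0308% as higher, and an unadjusted p under 0.05 was found for 0 members and for 626 of all probe sets (limma). The ctr9 deletion has 1 array, whose spread is assumed to be that of the other groups, and its comparison shares the wild type arrays with that of the paf1 deletion. RPC34 scored 6.27 and RPC17 6.29, which is below both wild type arrays, with differences of -0.94 (SE 0.64) and -1.04 (SE 0.64). RPC31 scored 8.11, a difference of -0.55 (SE 0.50). The limma adjusted p was 0.726 for RPC34, 0.690 for RPC17 and 0.841 for RPC31.

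The lowest difference in the ctr9 deletion was that of RRN10, which scored 3.30 against 3.73 and 5.13 in wild type, a difference of -1.13 (SE 0.84). The highest were those of RRN7, with 4.42 against 2.48 and 3.65 (1.36, SE 0.93), RRN3, with 6.22 against 4.57 and 5.89 (0.99, SE 0.80), and TFC6, with 5.50 against 4.16 and 5.25 (0.80, SE 0.72). The ctr9 deletion score lay below both wild type scores for 11 members, against 30.7% of all probe sets, and above both for 11, against 34.2%. RRN7 in the paf1 deletion, at 2.10 and 2.00, was close to the controls without a target. It passed the filter at 2.842 only with the ctr9 deletion and wild type arrays included. Its mean score was 2.56 without the ctr9 deletion array and 2.84 without the wild type arrays. The differences of RRN7 are therefore no more than a description. These extremes rest on single wild type arrays. Without wild type replicate 1 the differences of RRN10, RRN7, RRN3 and TFC6 were -1.83, 0.77, 0.33 and 0.25, and without wild type replicate 2 they were -0.43, 1.94, 1.65 and 1.34.

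The deletions were also compared directly. Of the 35 members 0 passed in this comparison, where 0.0616% of all probe sets passed as lower and 0.0% as higher in the paf1 deletion, and an unadjusted p under 0.05 was found for 3 members and 190 of all probe sets (limma). These members were RPC34, MAF1 and RRN7. RPC34 and MAF1 had differences (paf1 deletion minus ctr9 deletion) of -1.74 (SE 0.64) and -1.67 (SE 0.71), each with a limma adjusted p of 1. RRN7, at -2.37, would not have been tested without the ctr9 deletion array, in which it was high, and is given as a description. On the higher side TFC4 led with 0.80 (SE 0.68), from scores of 5.13 and 4.89 in the paf1 deletion against 4.21 with CTR9 deleted. A missed threshold does not show that the deletions act alike.

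**Figure D5:**
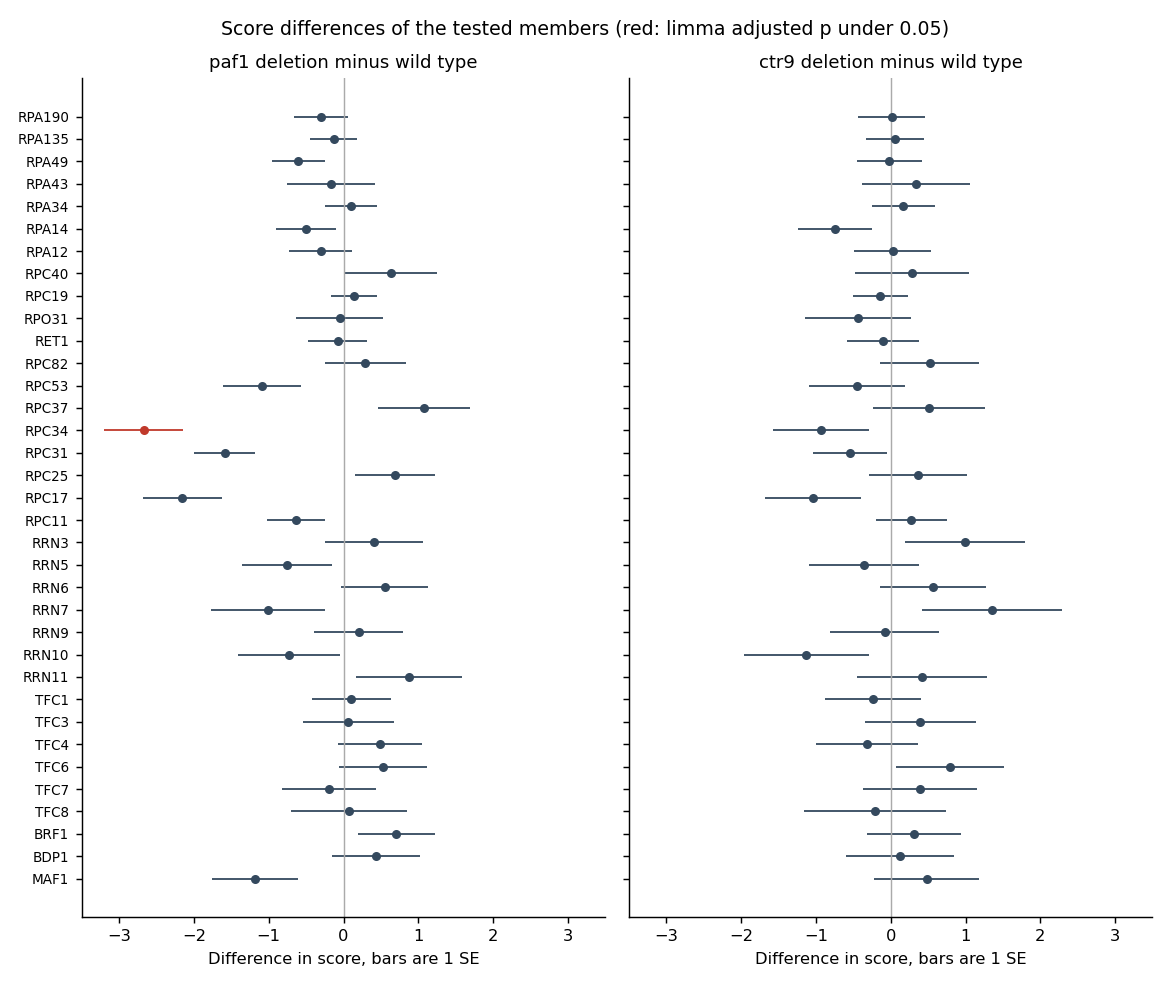
Difference in score for each tested member, the paf1 deletion minus wild type on the left and the ctr9 deletion minus wild type on the right, with bars of 1 standard error. RPC34 at -2.68 on the left is the only point in red (limma adjusted p under 0.05), and no point on the right is red.

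Other pathway genes gave 0 calls in the paf1 deletion or the ctr9 deletion in each of the 5 lists (limma). In the paf1 deletion an unadjusted p under 0.05 was found for 2 of the 7 other factors of polymerase I and III transcription, 2 of the 14 kinases and partners and 1 of the 42 processome genes, against 14.8% of all probe sets. In the ctr9 deletion it was found for 0 of 7, 1 of 14 and 1 of 42, against 9.64%. PZF1, the gene of TFIIIA, which binds the 5S ribosomal RNA gene, scored 4.12 and 3.62 in the paf1 deletion, 3.62 on the ctr9 deletion array and 1.77 and 1.65 in wild type, where it lay within the range of the controls without a target. Its differences of 2.16 (SE 0.72) and 1.91 (SE 0.89) did not pass (limma adjusted p = 0.188 and 0.522). PZF1 entered the test through its deletion scores, since its wild type scores were under the filter value of 2.84. NSI1, which acts in polymerase I termination, scored 4.68 and 5.12 in the paf1 deletion and 6.70 and 6.20 in wild type, a difference of -1.55 (SE 0.54, limma adjusted p = 0.205). Of the subunits common to all 3 polymerases, 4 of 5 were lower in the paf1 deletion with a median of -0.37, and polymerase II subunits had a median of -0.10.

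The strain scores can be set beside the time course, which shares no array with them and is on another scale. Of the 10 members whose paf1 deletion scores lay below both wild type scores, 5 were below 0 h at all 5 later times, namely RPA49, RPA14, RPC53, RPC34 and RPC31. Among all probe sets tested in both designs, 442 of the 1494 with such scores (29.6%) were, and among the members as a whole 18 of 35 were. RPC34 is the only one of these 5 that passed a test, and no test joined the designs. RRN7, counted among the 10, passed the filter on low values only through groups in which it was higher. RPC17, with a difference of -2.16 in the deletion, had ratios of 0.08 at 2 h and 0.61 at 4 h, and RPA135, below 0 h at all 5 times, differed by -0.13 in the deletion.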

How the data were processed

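Total RNA of 11 samples was measured on Affymetrix arrays, 1 per sample, per the labels. The authors deposited a signal intensity per probe set for the 6 time course arrays and a score for the 5 strain arrays. Software, background and scaling steps, and the score's scale, are not given in the sources used here. Of 9335 probe sets, 60 controls were left out. Gene names came from the platform annotation and RefSeq (assembly R64), where 6504 probe sets had 1 gene, 328 several and 2443 none.

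Members and lists were chosen with earlier results of these data known. Probe sets below the 30th percentile of the mean were removed, leaving 6493 for scores (mean from 2.84) and 6492 for signals (mean from 37.4). Signals under 5.6 (the 10th percentile) were raised to it before log2. Scores were fitted without a logarithm. Fits used limma 3.58.1 (lmFit, eBayes with a trend) in R 4.3.3, over all probe sets, two-sided, with Benjamini-Hochberg adjustment and a threshold of 0.05, and had 2 residual degrees of freedom for strains and 4 for the slope. The scripts were tested on simulated data. Genes given with values on each array are the members past the threshold, the 3 largest differences in each direction per fit, RPA190, RPA135, RPO31, RET1, RPC40, RPC19, RRN3, BRF1 and MAF1, with other members, and PZF1, NSI1, KNS1 and CKA1, chosen after their values were seen. Same-numbered wild type and paf1 deletion arrays deviated with a correlation of 0.0080, so numbers were not used as pairs. Promoter motifs were planned but not analysed here. The number of arrays limits the precision. Alternatives were other filters, floors, scalings, variance models, probe set averages and arrays left out.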

Additional observations from a re-analysis of the deposited data

Results flagged for a closer look

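Signals outside the comparisons were found above every control without a target, whose highest signal was 44.2. Among probe sets of the members that were not chosen, the mean time course signal was 1209, 636.8, 85.2, 59.05 and 56.03 for 5 of RPA190. It was 122.7 and 51.12 for 2 of RRN5.

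Array control probe sets for the ribosomal RNAs, which polymerase I makes, averaged 51.65 in the time course for 18S set b, 215.05 for 25S set a and 110.97 for 25S set e, and the other ribosomal RNA sets had means below that control signal. The 25S set a gave 173.7, 26.3, 23, 923.9, 57.3 and 86.1 at 0, 2, 4, 5, 6 and 8 h. Probe sets annotated to transfer RNA genes, products of polymerase III, had a median signal of 105.1 over the time course arrays. Of these 92 probe sets, 88 are of a kind shared by several transcripts.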

How the results depend on the processing

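The single call among the members, RPC34 lower in the paf1 deletion, was lost (0 members past the threshold) without a filter on low values, with quantile normalization and with eBayes without a trend, where its limma adjusted p was 0.0652, 0.0685 and 0.0659. Arrays centred on the median gave 3 members (RPC34, RPC17 and RPC31), and a fit of these 2 groups only with a replicate block gave 2 (RPC34 and RPC17). Leaving out 1 array gave 0 to 1 members, with 0 without wild type replicate 1, wild type replicate 2 or paf1 deletion replicate 2. The direction of RPC34 was the same in all of these fits. Over all probe sets the count past the threshold in the paf1 deletion was 111, against 41 without a filter, 56 with a filter at the 50th percentile, 42 with quantile normalization, 39 without a trend, 237 with centred arrays and 198 with the block, and 0 to 190 with 1 array left out. Planned settings gave 0 members in the ctr9 deletion, the direct comparison and the slope throughout, as did scaling to spike-ins, chosen after seeing the data. With 2-fold in place of 1.5-fold the members lower than 0 h numbered 0, 0, 2, 1 and 1 over the 5 later times, and centred arrays gave 8 at 8 h. The share of all probe sets was not counted for either setting. Changes of sign were checked only for called members and the 3 largest estimates in each direction per fit. Among these, the difference of RRN11 between the deletions became -0.08 without paf1 deletion replicate 1. The slope of RRN7 also changed sign, from -0.036 (without 8 h) to 0.12 (without 0 h) with 1 time left out. Other members were not checked. The paf1 deletion scores of RPC82, RET1 and RPA135 lay between the wild type scores, so their sign depends on the wild type array kept. That of RPO31 depends on the paf1 deletion array kept. With spike-in scaling the slopes of RRN7, RRN10 and RPC25 were -0.025, -0.020 and -0.018. The slope of RPC82 ran from -0.14 to -0.013 and that of RPC31 from -0.17 to -0.071 with 1 time left out. None of these passed a test, and the causes were not tested. Replicates of 2 and 1 array, and 1 array per time, limit what can be detected.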

Other observations

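The transfer RNA probe sets, read after their values were seen, had median scores of 4.26 and 4.16 in the paf1 deletion, 3.705 in the ctr9 deletion and 4.865 and 5.65 in wild type. Each deletion array was thus below both wild type arrays, while the medians of all probe sets were 5.03 and 4.78 in the paf1 deletion, 4.95 in the ctr9 deletion and 4.92 and 4.91 in wild type. In the time course the same probe sets had median signals of 193.4, 96.2, 94.45, 77.8, 246.35 and 114.05 at 0, 2, 4, 5, 6 and 8 h, with the highest median at 6 h. As most of them are shared by several transcripts they are not independent of each other, and no test was made.

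KNS1, a kinase known to act on polymerase III through Rpc53 in budding yeast, scored 8.13 and 7.64 in the paf1 deletion, 8.06 in the ctr9 deletion and 7.03 and 6.62 in wild type. Its differences from wild type, 1.06 (SE 0.44) and 1.235 (SE 0.54), did not pass (limma adjusted p = 0.298 and 0.507). CKA1, a catalytic subunit of casein kinase 2, had signals of 391, 385, 350, 287, 271 and 216 at 0, 2, 4, 5, 6 and 8 h, a slope of -0.11 log2 units per hour (SE 0.03) that did not pass (limma adjusted p = 0.557).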
